A study of Caenorhabditis elegans with 2 samples.

Results

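The genes F44E5.4 and F44E5.5 are a head-to-head pair of stress-inducible Hsp70 genes on chromosome II of Caenorhabditis elegans, and hsp-70 is a related stress-inducible Hsp70 gene on chromosome I. They were taken by symbol from the Ensembl annotation of WBcel235 (ce11) and are 3 of 19973 protein-coding genes. They were selected on the peak signal at their promoters in these data, so those signals are given as a description, with no test. The data are chromatin immunoprecipitation with sequencing from 2 biological replicates of 1 group: whole L4 larvae, 48 hours old, synchronised as starved L1 larvae after bleaching. The strain, OP773, carries the transgene wgIs773, which holds Y105C5A.15 fused to TY1, EGFP and 3xFLAG together with a functional unc-119 gene, in an unc-119 (tm4063) mutant background. Chromatin was precipitated with an anti-GFP antibody, and the labels name neither a stress treatment nor the promoter of the transgene. No sample without the tagged protein was analysed here, so antibody signal that does not need this protein cannot be told apart from binding.

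Hsp70 proteins are ATP-driven chaperones that bind exposed hydrophobic stretches of other proteins. Stress-inducible Hsp70 genes are classic targets of heat shock factor, HSF-1 in worms, which binds as a trimer to heat shock elements. Such an element is a run of 3-base units, GAA and TTC in turn, spaced by 2 bases. Whole larvae mix all tissues, so a peak does not tell in which cells it arose.

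The signal of a peak below is the authors' value in the peak lists, and no source used here gives its scaling. Each of the 2 replicates has a ranked list of all its peaks and a shorter thresholded list. There is also such a pair of lists over both replicates, and a conservative pair. The irreproducible discovery rate (IDR) estimates how often a peak of that rank fails to repeat between data sets, and thresholded lists hold peaks with an IDR of at most 0.01. They do not hold all such peaks: 1046 of the 1181 ranked peaks within that limit are in the list over both replicates, 350 of 455 in replicate 1 and 329 of 422 in replicate 2. What removed the others is stated in no source used here, and places among thresholded regions depend on it. The thresholded list over both replicates gave 1023 regions after overlapping peaks were merged, the conservative list 831, replicate 1 gave 349 and replicate 2 gave 323. The lists hold no read counts, so the depth is unknown.

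F44E5.4 (WBGene00009691) runs leftward from its start at II 11759311 to 11757107, and F44E5.5 (WBGene00009692) runs rightward from its start at 11759662 to 11761861. The starts are 351 bases apart. The genes have 2 exons each, and their coding sequences are identical over all 1935 bases, so both encode the same protein of 645 residues. The whole genes differ at 2 of 2195 aligned bases. The sequence around them is an inverted repeat with arms of 2320 bases each, which match at 2316 positions with no gap. The left arm (11757079 to 11759398) holds F44E5.4 and 87 bases upstream of its start, and the right arm (11759565 to 11761884) holds F44E5.5 and 97 bases upstream of its start. A spacer of 166 bases (11759399 to 11759564) with no inverted counterpart lies between the arms.

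Between the starts lay 1 peak in every list. The sequence under the peak over both replicates is shown whole because its repeat structure and heat shock units are what the results refer to. It is the plus strand of chrII:11759335-11759590, read from the RefSeq genome of WBcel235 (ce11), and the capitals mark runs of at least 3 heat shock units, the last of which extends past the peak.
Peak between F44E5.4 and F44E5.5: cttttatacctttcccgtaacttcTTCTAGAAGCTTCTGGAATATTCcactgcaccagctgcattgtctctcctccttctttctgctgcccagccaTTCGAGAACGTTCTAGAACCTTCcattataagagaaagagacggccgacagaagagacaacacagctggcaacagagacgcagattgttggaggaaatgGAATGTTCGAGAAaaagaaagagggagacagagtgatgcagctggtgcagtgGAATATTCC

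The part of the left arm between the starts and its counterpart in the right arm are shown to compare the promoters of the genes. The 10 bases of the right arm next to the F44E5.5 start are not shown, since their counterparts lie within F44E5.4. Each is read from the end near the gene, from chrII:11759312-11759398 on the plus strand and from chrII:11759565-11759651 on the minus strand, with runs of heat shock units in capitals.
Arm beside F44E5.4: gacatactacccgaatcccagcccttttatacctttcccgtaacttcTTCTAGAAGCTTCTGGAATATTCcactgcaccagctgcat
Arm beside F44E5.5: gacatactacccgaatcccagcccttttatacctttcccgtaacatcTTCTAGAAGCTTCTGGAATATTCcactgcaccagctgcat

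These promoter stretches differ by T45A, where the F44E5.4 side is given first and positions are counted from the end near the gene. They match at the other 86 of 87 bases. Both carry the same run of 5 heat shock units, with its near end 48 bases from the start of F44E5.4 and 58 bases from the start of F44E5.5. The spacer holds a different run of 5 units (11759431 to 11759453) and a run of 3 units (11759530 to 11759542). The sequence between the starts therefore holds 4 runs, with 3 of them 5 units long.

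The peak at the pair had a signal of 133 in replicate 1 and 102 in replicate 2, a mean of 118 ± 22.0 (SD, n = 2). In the list over both replicates its signal was 233, with an IDR of 1.44e-05. The IDR was 1e-05 in replicate 1 and 2.47e-05 in replicate 2. The peak was present in all thresholded lists, the conservative one included. The ranked list of each replicate also gives a signal for each of the data sets it compared. These were 60.05 and 73.0 in replicate 1, and 44.8 and 57.8 in replicate 2. They come from within the list of a single replicate, so they are not further replicates. The signal over both replicates was 0.989 times the sum of the replicates' signals, and the median of this ratio over 997 regions with a peak in both replicates was 1.00. Values over both replicates therefore stand on a scale near the sum of the replicates, not near their mean.

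Replicate 1 was higher than replicate 2 at the pair by 0.38 on the log2 scale. Over the 997 regions the median of this log2 difference was -0.10, with quartiles at -0.47 and 0.27. A larger log2 difference in the same direction was found at 17.9% of regions, and a larger one in either direction at 48.3%.

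All summits lay in the spacer between the arms. Over both replicates the summit was at 11759463, which is 152 bases upstream of F44E5.4 and 199 bases upstream of F44E5.5. In replicate 1 it was at 11759508, 197 bases upstream of F44E5.4 and 154 bases upstream of F44E5.5. In replicate 2 it was at 11759464, 153 bases upstream of F44E5.4 and 198 bases upstream of F44E5.5. The nearer start was thus that of F44E5.5 in replicate 1 and that of F44E5.4 in replicate 2, and the summits lay on opposite sides of the midpoint between the starts. The peaks have a fixed width, 256 bases for 98.8% of the peaks over both replicates, with the summit in the middle. Their edges are therefore no measure of how far the signal reached. The lists assign 1 peak to the 2 genes, and these data do not divide its signal between them.

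**Figure D1:**
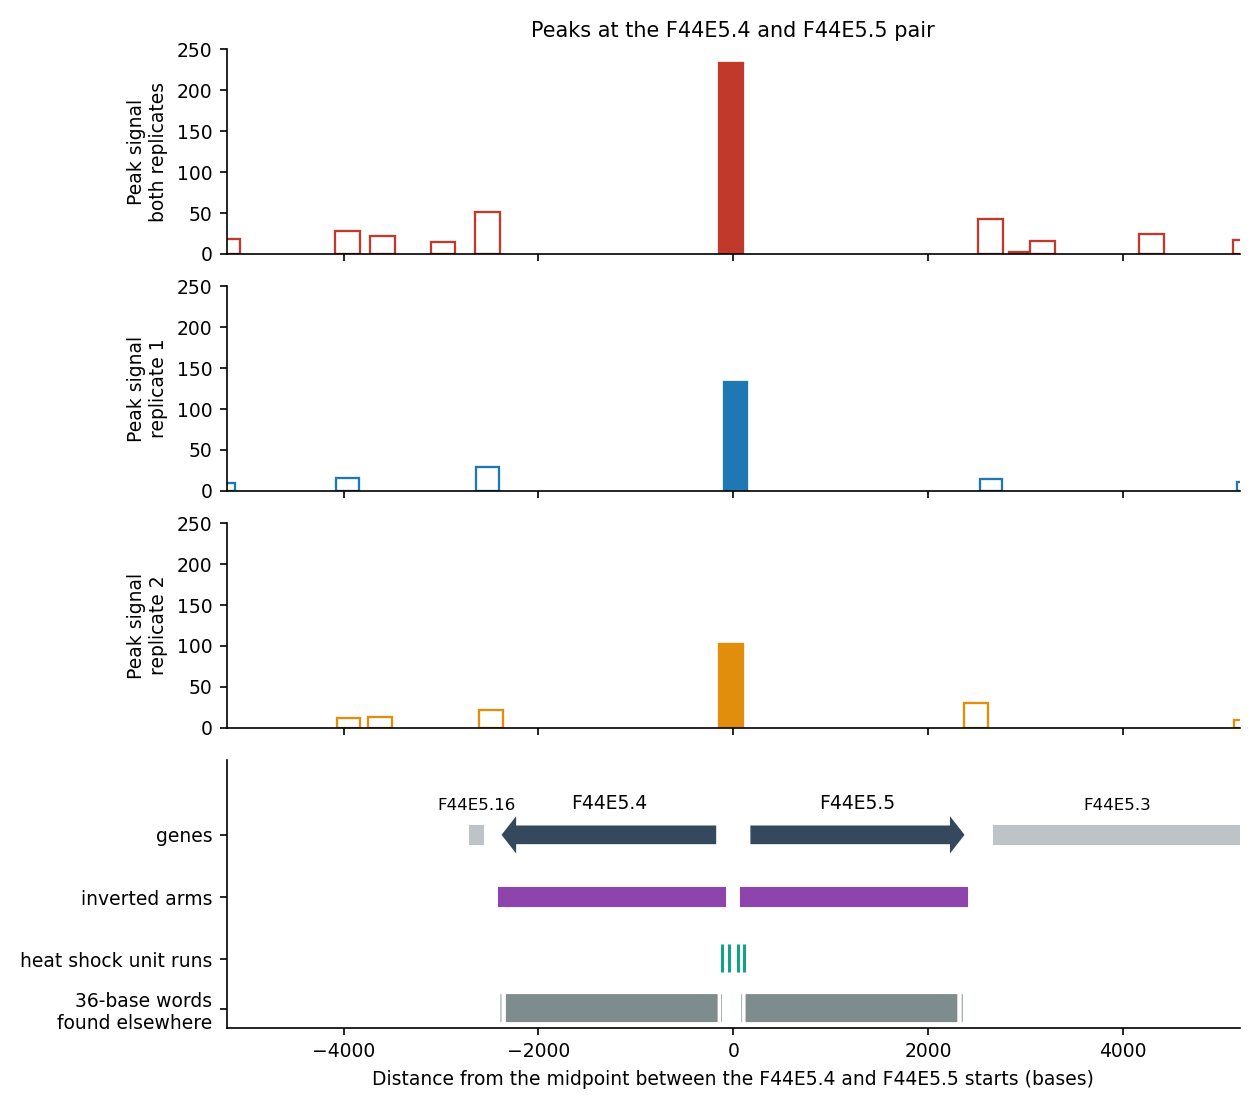
Peaks of the ranked lists around the F44E5.4 and F44E5.5 pair over both replicates (top), in replicate 1 and in replicate 2, as boxes of the peak's width and signal, against distance in bases from the midpoint between the starts. Filled boxes are also in the thresholded list. The bottom panel shows the genes, the inverted arms, the centres of the 4 heat shock unit runs, and stretches whose 36-base words occur elsewhere in the genome. A single filled box, at 233, 133 and 102, stands over the spacer, and no summit lies in the arms.

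The copy number of the sequence bears on where a read can be placed. Of the 36-base words in F44E5.4, 1.84% occurred once in the genome, and in F44E5.5 2.08% did. In the spacer all of them did, and under the main peak 96.8% did. Of 100-base words, 5.00% were found once in each arm and 100% under the main peak. The arms held 0 summits in 4640 bases in each of the ranked lists. The 10000 bases beside them, 5000 on each side, held 14 summits in the list over both replicates, 7 in replicate 1 and 6 in replicate 2. Over the genome there were 1.03, 0.483 and 0.547 summits per 1000 bases in the same lists. How the authors treated reads that match several places is stated in no source used here, and its part in the absence of summits from the arms was not tested.

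Weaker ranked peaks with summits outside the arms stood just past the end of each gene. Past F44E5.4 the peak II 11756832 to 11757087 had a signal of 51.8 over both replicates, with 28.8 in replicate 1 and 21.9 in replicate 2. Its summit was 147 bases past the gene end, and it overlaps the non-coding RNA gene F44E5.16 (WBGene00219949, 11756785 to 11756919). Past F44E5.5 the peak II 11762001 to 11762256 had 42.5 over both replicates, with 14.7 in replicate 1. Its summit was 268 bases past the gene end, and it overlaps the pseudogene F44E5.3 (WBGene00009690, 11762166 to 11766136, minus strand). In replicate 2 a peak of 30.7 at 11761860 to 11762099 had its summit 119 bases past the gene end. That peak runs into the right arm and does not reach F44E5.3. Neither peak over both replicates is in a thresholded list, as their IDR was 0.0149 and 0.0371. All 36-base words of these peaks over both replicates occur once in the genome.

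Among protein-coding promoters the pair had the highest signal in every thresholded list. The promoter window spans 1000 bases before a start and 200 bases after it, and 387 coding genes (1.94%) had a summit of the list over both replicates in it. These summits belong to 339 regions, and the pair's region was in place 1 with 233, against 184 for the next, near rpl-3, and a median of 64.2. It was 3.62 times that median. The pair was also in place 1 of 109 coding promoter regions in replicate 1, with 133 against 96.1 for the next. In replicate 2 it was in place 1 of 99, with 102 against 98.3. The lead over the next region was 1.39 times in replicate 1 and 1.04 times in replicate 2, so in replicate 2 the pair and rpl-3, a ribosomal protein gene, were nearly level.

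Among all regions, including those at small RNA genes, the pair was in place 3 of 1023 over both replicates, 2 of 349 in replicate 1 and 8 of 323 in replicate 2. Many regions in this series lie at genes of small structural RNAs, but the pair does not: the nearest such gene, the snoRNA gene K12D12.6, is 116997 bases from the summit. Among the 269 coding promoter regions more than 100 bases from such a gene the pair was in place 1. In the ranked list over both replicates 28 of 103220 peaks had a higher signal than the pair, and 26 of those 28 are not in the thresholded list. None of the 28 lay in a coding promoter window. In replicate 2 the ranked list has a higher peak, 111, in the window of Y80D4G.2, which the thresholded list lacks.

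**Figure D2:**
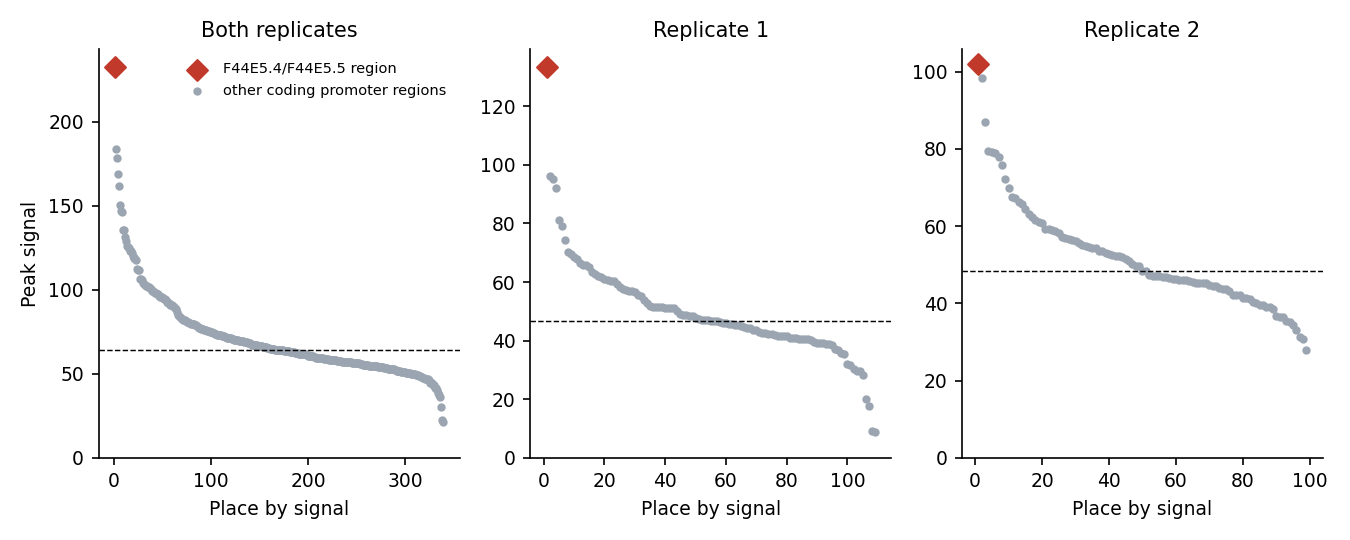
Signal of each coding promoter region (vertical axis) in order of place (horizontal axis), in the thresholded list over both replicates, in replicate 1 and in replicate 2. The diamond is the F44E5.4/F44E5.5 region, at 233, 133 and 102, grey points are the other regions, and the dashed line is the median. The diamond is highest in each panel, with a narrow lead in replicate 2.

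The coding promoter regions most like that of the pair were found by distance in log2 signal over 3 values, which are the list over both replicates, replicate 1 and replicate 2. The nearest was that of rpl-3, with 184, 92.0 and 98.3, at a distance of 0.63. Next came sre-23, a chemoreceptor gene, with 178, 95.2 and 79.2, though its summit lies within 100 bases of the snoRNA gene ZK265.10. The others were ift-43 of intraflagellar transport (169, 96.1 and 75.8), vps-37 of endosomal sorting (162, 81.1 and 77.9) and tasp-1, which encodes a threonine aspartase (151, 68.4 and 86.9). None of the 5 reached the pair's value on any of the 3, but the pair was selected on its signal, so nothing is read from this.

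The gene hsp-70 (WBGene00002026, I 9320325 to 9322519, minus strand) encodes 643 residues, of which 565 (87.9%) match the protein of the pair. Its coding sequence matches at 80.8% of bases. For comparison, the constitutive cytosolic Hsp70 gene hsp-1 matches the pair at 71.1% of residues and 69.6% of coding bases. All 36-base words of hsp-70 and of the 1000 bases upstream occur once in the genome.

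No thresholded list had a peak in the promoter window of hsp-70. The ranked list over both replicates held 1 peak there (I 9322541 to 9322796), with a signal of 24.2 and an IDR of 0.431. Replicate 1 had no ranked peak in the window, and replicate 2 had 1 of 14.3, with an IDR of 0.687. The summits were 150 bases upstream of the start over both replicates and 154 bases in replicate 2. The pair's signal was 9.62 times that of hsp-70 over both replicates and 7.13 times in replicate 2. Of the 14704 coding genes with any ranked peak in the window, hsp-70 was in place 6399, and the median over those genes was 22.6. The signal of hsp-70 thus lay close to that of a typical coding promoter with a ranked peak. In replicate 2 it was in place 5384 of 9904, where the median was 15.0.

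The thresholded peaks at hsp-70 stood at the other end of the gene. The stronger one (I 9319947 to 9320202) had a signal of 66.5 over both replicates, with its summit 250 bases past the gene end, and an overlapping one (9320151 to 9320406) had 19.4. Replicate 2 had a thresholded peak of 46.1 there, and replicate 1 had a ranked peak of 24.5 (IDR 0.0634) that its thresholded list lacks. These peaks cover the tRNA genes C12C8.t6 (9319965 to 9320036) and C12C8.t1 (9320178 to 9320249). Only 76.5% of the 36-base words under the stronger peak occur once, with some found at up to 35 places. Within hsp-70 the ranked peaks over both replicates had signals of 13.3 to 19.5. The whole of hsp-70 and both tRNA genes lie in an intron of uggt-2, a gene on the plus strand, between exons that end at 9319901 and begin at 9323238. The product of uggt-2 resembles an enzyme that checks glycoprotein folding.

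**Figure D3:**
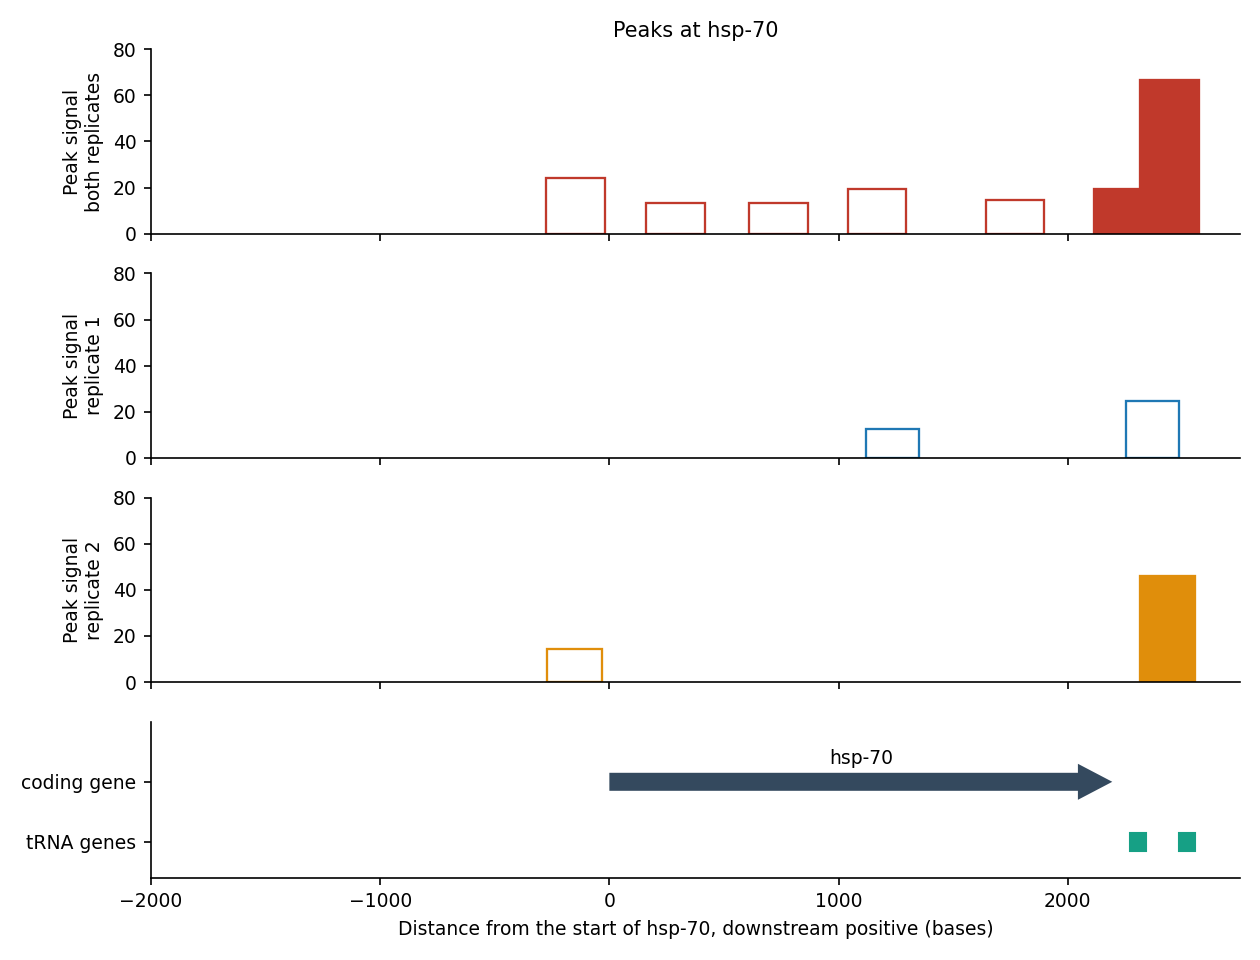
Ranked peaks at hsp-70 over both replicates (top), in replicate 1 and in replicate 2, as boxes of the peak's width and signal, against distance in bases from the start of hsp-70. Filled boxes are also in the thresholded list, and the bottom panel shows hsp-70 and the tRNA genes. The promoter has open boxes of 24.2 and 14.3 and none in replicate 1, and the filled boxes of 66.5, 19.4 and 46.1 lie at the tRNA genes past the gene end.

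Of the 12 genes on a list of the Hsp70 family, 4 (33.3%) had a region in the promoter window, and 1.94% of all coding genes had one. F44E5.4 and F44E5.5 are 2 of the 4, share 1 region and were selected on its signal, so nothing is read from this share. Without F44E5.4, F44E5.5 and hsp-70, 2 of 9 genes (22.2%) had a region. These were hsp-6, the mitochondrial Hsp70 gene (71.2 over both replicates, 31.2 in replicate 1 and 38.6 in replicate 2), and hsp-1 (63.8, 48.7 and 40.6). The conservative list holds the hsp-6 region but not the hsp-1 region. The summits of hsp-6 and hsp-1 were 416 and 364 bases upstream of the start, farther than those of the pair. The hsp-6 summit lay nearer to the start of the divergent gene C37H5.5, 184 bases away. Over both replicates the pair's signal, on which it was selected, was higher than the sum of those of hsp-6 and hsp-1.

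The other family members had ranked peaks only. In the list over both replicates hsp-3 and hsp-4, which encode the BiP chaperones of the endoplasmic reticulum, had 55.0 (IDR 0.0124) and 33.3. The gene stc-1 had 34.9, hsp-110 had 17.1, and the genes T24H7.2, T14G8.3 and F11F1.1 had 22.96, 21.3 and 7.95. The median over the 12 genes was 34.1, against 22.6 over all coding genes with a ranked peak. The 12 include hsp-70 and the selected F44E5.4 and F44E5.5, which share their signal, so nothing is read from this difference.

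**Figure D4:**
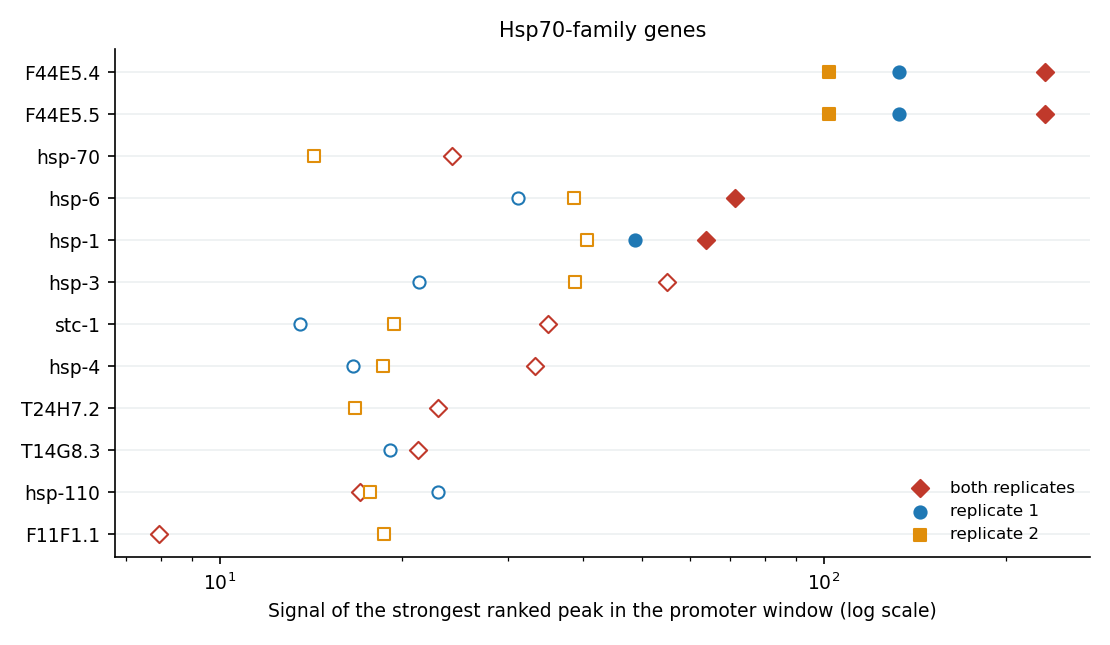
Signal of the strongest ranked peak in the promoter window (log scale) of the 12 Hsp70-family genes over both replicates (diamonds), in replicate 1 (circles) and in replicate 2 (squares). Filled symbols are also in the thresholded list, and a missing symbol means no ranked peak. F44E5.4 and F44E5.5 share their values of 233, 133 and 102, while hsp-70, at 24.2 and 14.3, lies among the family members without a region.

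Across 5 other lists of heat shock and chaperone genes, 3 of 32 annotated genes had a region (9.38%), against 1.94% of all coding genes. The lists, which hold aha-1 in error, were chosen with earlier results of these data known, so nothing is read from this share. All 3 genes with a region were on the list of 8 Hsp40 and nucleotide exchange genes. These were hsp-60, a mitochondrial chaperonin gene (99.2 over both replicates, 59.2 in replicate 1, 32.2 in replicate 2), dnj-13, an Hsp40 co-chaperone gene (72.4, 40.8 and 47.1), and bag-1, a nucleotide exchange factor gene (59.8, 30.5 and 33.6). All 3 were below the pair, which was selected on its signal, in each of the 3 values. The hsp-60 summit lay 618 bases upstream of hsp-60 but 195 bases from the start of the divergent gene Y22D7AL.10. None of the 4 annotated genes of the inducible small heat shock list, of the 8 other small heat shock genes, of the 4 genes of the heat shock factor list or of the 8 of the Hsp90 list had a region.

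The inducible small heat shock genes of the hsp-16 family are also head-to-head pairs, and they were looked up after the values at F44E5.4 and F44E5.5 had been seen. Between hsp-16.2 and hsp-16.41, whose starts are 221 bases apart, a ranked peak over both replicates had a signal of 21.5, and neither replicate had a summit there. The annotation gives 2 further pairs, both with the symbols hsp-16.1 and hsp-16.48, with starts 349 and 311 bases apart. The list names hsp-16.11 and hsp-16.49 were not found as symbols, so the genes of the second of these pairs (WBGene00002020 and WBGene00002017) were not counted on the list. Neither the list over both replicates nor that of a single replicate had a ranked summit between those starts. In the wider promoter window, hsp-16.1 (WBGene00002015) had a ranked peak of 36.8 over both replicates, 16.6 in replicate 1 and 22.8 in replicate 2. Over both replicates its summit (V 9088768) was 986 bases upstream of the start. That is past the far end of the divergent gene hsp-16.48 (9088131 to 9088617), not between the starts. The windows of hsp-16.2 and hsp-16.41 held a ranked peak of 16.46 in replicate 2 and none in replicate 1. How often short words of the hsp-16 genes occur in the genome was not counted, so whether reads could be placed there is not known.

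Of 2560 divergent pairs of neighbouring coding genes with starts at most 2000 bases apart, 53 had a region between their starts. This share, 2.07% (95% interval 1.55 to 2.70%), was near the 1.94% of all coding genes with a region in the promoter window. By signal F44E5.4/F44E5.5 was in place 1. The next were K01G5.10/tasp-1 with 151, rpl-15/K11H12.8 with 146, rocf-1/pqn-71 with 136 and lev-9/mom-1 with 136. The summits of rocf-1/pqn-71 and lev-9/mom-1 are no more than 100 bases from small RNA genes. The median over the 53 was 72.8. The starts of F44E5.4 and F44E5.5 are closer than those of most pairs, with 351 bases against a median of 678 (quartiles 366 and 1156). Of the 614 pairs at most as far apart, F44E5.4/F44E5.5 included, 5 (0.814%) had a region between the starts.

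**Figure D5:**
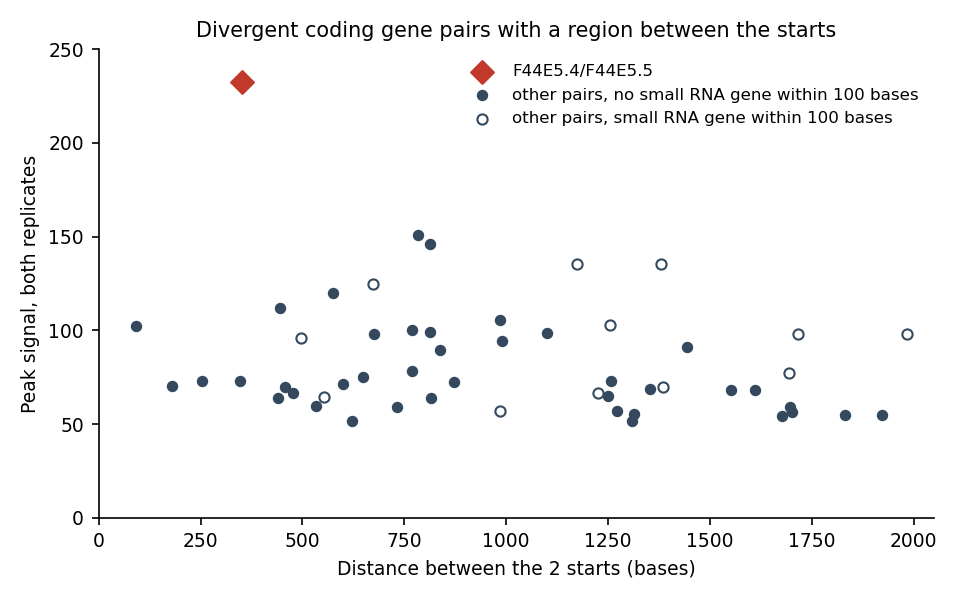
Signal over both replicates (vertical axis) against the distance between the starts in bases (horizontal axis) for the 53 divergent coding gene pairs with a region between their starts. The diamond is F44E5.4/F44E5.5, at 233 and 351 bases, and open circles are pairs whose summit is no more than 100 bases from a small RNA gene. No other pair reaches more than 151.

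Heat shock units were counted as runs of GAA and TTC in turn with 2 bases between units, on both strands at once, since the pattern reads the same on either. The peak at the pair held 3 runs of at least 3 units, 2 of them 5 units long. Over both replicates the summit lay 10 bases from the 5-unit run in the spacer, and in replicate 2 it lay 11 bases from it. In replicate 1 it lay 22 bases from the 3-unit run. The words GAANNTTC and TTCNNGAA, which overlap these runs, occurred 6 and 5 times under the peak. Of all main regions, in windows of 256 bases, 15.0% held the word GAANNTTC and 13.7% held TTCNNGAA.

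The promoters of the members differ in these runs. In the 300 bases from 250 before to 50 after the start, F44E5.4 and F44E5.5 each had 3 runs with 13 units, while hsp-70 had 1 run of 3 units. A run of at least 3 units was found in 393 of 19973 coding promoters (1.97%), and 15 of those 393 genes (3.82%), F44E5.4 and F44E5.5 included, had a region in the promoter window. Their median ranked signal was 22.5, against 22.6 over all coding genes. All 6 hsp-16 genes of the head-to-head pairs had such a run and none had a region. How often their sequence occurs elsewhere in the genome was not counted. Of the Hsp70 family, hsp-1 had 1 run and hsp-110 had 2, and hsp-6 had a region with no run.

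Runs of at least 5 units were rarer, and the following counts were chosen after the sequence of the pair's peak had been seen. They occurred in 11 of 19973 coding promoters (0.0551%), of which 3 had a region in the promoter window (27.3%). F44E5.4 and F44E5.5 are 2 of the 3 and share 1 region, and without them 1 of 9 (11.1%) had one, Y54B9A.1 with 90.7. The remaining 8 had ranked signals of at most 28.4 or no ranked peak. Such runs thus also stood at 8 promoters without a region.

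Among the main regions, 18 of 1023 (1.76%) held a run of at least 5 units, against 15 of 2046 windows (0.733%) placed 500 bases to each side. Some of the 18 lie close together, such as I 14686525 to 14686780 and I 14687036 to 14687291. Windows to the side can therefore fall on another of the 18. The pair had the highest signal of the 18, followed by a region on chromosome IV (15896014 to 15896077) with 216. The median over the 18 was 103, against 64.1 over all regions, and 5 of them were among the 25 regions with the highest signal. Both values include the pair's region, which was selected on its signal. The other 17 differ from the pair in sequence. They held 26 to 45 units each, with a longest run of 7 units, and at most 49.3% of their 36-base words occur once in the genome, against 96.8% under the pair's peak. Over the genome 492 places held such runs, of which 17 (3.46%) had a main region, those between F44E5.4 and F44E5.5 included. The share for places without such runs was not computed, so nothing is read from this share. Which of these places reads could be assigned to was not tested.

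Other words were looked up in the same window. TATAAA on either strand occurred once under the pair's peak. It was held by 21.3% of main regions, in windows of the peak's length, and by 37.9% of coding promoters, in windows of 300 bases. Of the words that earlier results of this series had found at its summits, CGAACC was not under the peak on either strand. The word GAACCC was not there, nor was the word ACCACT. One match each was found for the word GTTCGA, which 29.2% of main regions hold, and for the word GGCCGA, which 13.7% of main regions hold. The GC content of the peak was 46.5%, against a median of 43.4% over all main regions.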

How the data were processed

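Peak lists of 2 biological replicates of 1 group were used, 8 files in all. Per the labels, reads were placed on ce11. No source used here names the aligner, the peak caller or the treatment of repeated sequence. The signal of each peak is the deposited value of the authors. The deposited score is a whole number computed by the authors out of the IDR, and the ranked lists give the −log10 of the IDR computed by the authors.

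Overlapping peaks were merged, keeping the summit and signal of the strongest. Genes came from Ensembl release 115 and sequence from the RefSeq genome of WBcel235, which is ce11. Coordinates are 1-based. Small RNA genes are tRNA, snoRNA, snRNA and rRNA genes. The named genes are the members, the Hsp70 family, list genes with a region, the 5 most alike regions, the 5 leading divergent pairs and the neighbours of the pair. Members, lists and words were chosen with earlier results of these data known. One listed gene, aha-1, was placed on the Hsp90 list in error. With 1 group and 2 samples no test was run, and intervals are exact Clopper-Pearson intervals that cover counting error only. Alternatives were the conservative list, each replicate alone, a stricter list, other windows, other limits of distance, and place by IDR. The window, place and pair steps were tested on simulated data. Python 3.11.15, numpy 2.4.6, pandas 2.3.3, scipy 1.17.1, Biopython 1.88 and matplotlib 3.10.9 were used.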

Additional observations from a re-analysis of the deposited data

How the results depend on the processing

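Of 44 alternatives to 9 results, 30 stayed close to the main value and 14 moved. A reversal was not scored as a separate outcome. The pair was in place 1 among coding promoter regions under all 7 alternatives for its place, place by IDR included. Leaving out a replicate gave a pair signal of 102 to 133, on the lower scale of single lists. It gave offsets of 153 to 197 bases from F44E5.4 and 154 to 198 bases from F44E5.5. The ranked signal of hsp-70 was 14.3 without replicate 1, and without replicate 2 there was no ranked peak in the window and so no value. The place of hsp-70 was 3747 of 10583 with a window of 500 bases upstream to 100 downstream, and 13724 of 17724 with a window of 2000 bases upstream to the gene end. Hsp70-family genes with a region numbered 2 to 3 with a replicate left out: without replicate 1 hsp-1 and hsp-6 were lost, and without replicate 2 hsp-6 was lost. With the conservative list they numbered 3, with hsp-1 lost, and with the window to the gene end 6, with hsp-110 and T24H7.2 added. Genes of the other lists with a region numbered 1 with either replicate left out (dnj-13 in replicate 2, hsp-60 in replicate 1), and 6 with the window to the gene end. The share over all coding genes was 0.616% without replicate 1, 0.661% without replicate 2 and 4.86% with the window to the gene end. The share of divergent pairs with a region was 0.977% with either replicate left out. In 100 bases on the summit there was 1 run of heat shock units. No paired analysis was possible because the study has 1 group.

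The limits are that 2 replicates of 1 group give no test of a condition, that depth and the scaling of the signal are unknown, and that near-identical arms flank the peak.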
